A study of Homo sapiens with 6 samples.

Results

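Complex I, the NADH:ubiquinone oxidoreductase of the inner mitochondrial membrane, was followed through the gene symbols that start with NDUF and hold no hyphen, of which there were 47 among 26255 gene symbols. They comprised 37 subunits, 7 assembly factors named NDUFAF, 2 genes that are not part of the enzyme (NDUFA4 and NDUFA4L2) and the pseudogene NDUFAF4P1. By their place in the enzyme, 10 subunits were assigned to the N module, 6 to the Q module and 20 to the P module (9 in its proximal and 11 in its distal part), and NDUFAB1 to both arms. NDUFAF8 was found only under its older symbol C17orf89, and the subunits encoded by mitochondrial DNA were not analysed here.

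Messenger RNA was sequenced from HCT116, an established human colorectal carcinoma cell line, in 3 ZsGreen-negative and 3 ZsGreen-positive libraries. ZsGreen is a green fluorescent protein, and the series concerns cells transduced with the degron of ornithine decarboxylase, a signal for degradation by the proteasome without ubiquitin, as a model of cancer stem cells. The labels give no drug treatment, time point or batch, and they do not say whether the cells were a clone or whether the ZsGreen-negative cells kept the reporter. Separate cultures are not named either, so p-values cover only the spread among these 6 libraries, part of which may be technical. If each group was handled as its own batch, batch and group cannot be told apart.

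Complex I takes electrons from NADH and passes them through a flavin and a chain of iron-sulfur clusters to ubiquinone, while the membrane arm pumps protons. The N module at the tip of the matrix arm oxidises NADH, the Q module below it reduces ubiquinone, and the P module is the membrane arm, which is built on core subunits from mitochondrial DNA. The nuclear core subunits carry the redox centres or line the quinone site, the accessory subunits surround them, and the assembly factors help to build the enzyme but are absent from the finished complex.

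Values are FPKM, fragment counts scaled to transcript length and to the total of mapped fragments. They were compared on the log2(FPKM + 1) scale with limma (two-sided, Benjamini-Hochberg adjusted over 12213 genes with a mean of at least 1 FPKM). A gene was called at an adjusted p under 0.05. Each log2 fold change is positive minus negative with its SE, and library values are listed from replicate 1 to 3.

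The estimated depth was 9460000 to 9910000 fragments in the ZsGreen-negative and 12200000 to 13700000 fragments in the ZsGreen-positive libraries. For positive replicates 2 and 3 the estimate rests on ratios to positive replicate 1 over only 23 and 16 genes. Over genes (not independent replicates) libraries correlated at 0.986 to 0.988 inside the negative group, 0.967 to 0.971 inside the positive group, and 0.844 to 0.857 across groups. ZsGreen-positive replicates 2 and 3 differed from the rest at low values. Of 79 genes at 1 estimated fragment in positive replicate 1, 56 were listed at 0 in replicate 2 and the other 23 at 3 or more fragments there, and in replicate 3 63 were at 0 and 15 of the other 16 at 3 or more. Of 8 epithelial markers 7 reached 1 FPKM, while VIL1 was listed at 0 to 0.038 FPKM, and the summed level of the list was 4246 to 4312 FPKM in the negative and 3152 to 3583 FPKM in the positive libraries. Of 6 fibroblast markers only COL1A1 reached 1 FPKM (list sums 2.35 to 2.50 against 0.731 to 1.19 FPKM, with COL1A2, DCN and LUM at 0 throughout). Of 6 blood and vessel markers only CD68 did (list sums 1.504 to 1.941 against 0.534 to 4.21 FPKM, with CD3E at 0 throughout).

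Most subunit transcripts of complex I were more abundant in the ZsGreen-positive libraries. All 37 subunits were tested. Of these, 29 rose, 2 fell and 6 did not pass the threshold, beside 29.4% of all tested genes higher and 30.0% lower. The 3 positive values lay above the 3 negative values for 31 subunits (33.2% of all tested genes). They lay below them for 2 subunits, beside 4211 of the 12213 tested genes. The median log2 fold change of the subunits was 0.61, from -0.60 for NDUFS4 to 1.66 for NDUFV1, where the median of all tested genes was 0.0040. In 10 subunits that rose the ratio of the mean FPKM was at least 2, among them NDUFV1, NDUFS7, NDUFA7, NDUFS3, NDUFS6, NDUFA11, NDUFA2, NDUFB8 and NDUFB10. This held for 1550 of the 12213 tested genes. Of the 7 NDUFAF factors 2 were higher (28.6%, near the 29.4% of all tested genes), 0 lower (beside 30.0%) and 5 not past the threshold. Their median log2 fold change was 0.16. This median was 0.035 without positive replicate 3 and 0.065 without positive replicate 1, and 1 factor was higher when any 1 of the negative libraries was left out. The difference between subunits and NDUFAF factors was not tested.

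**Figure D1:**
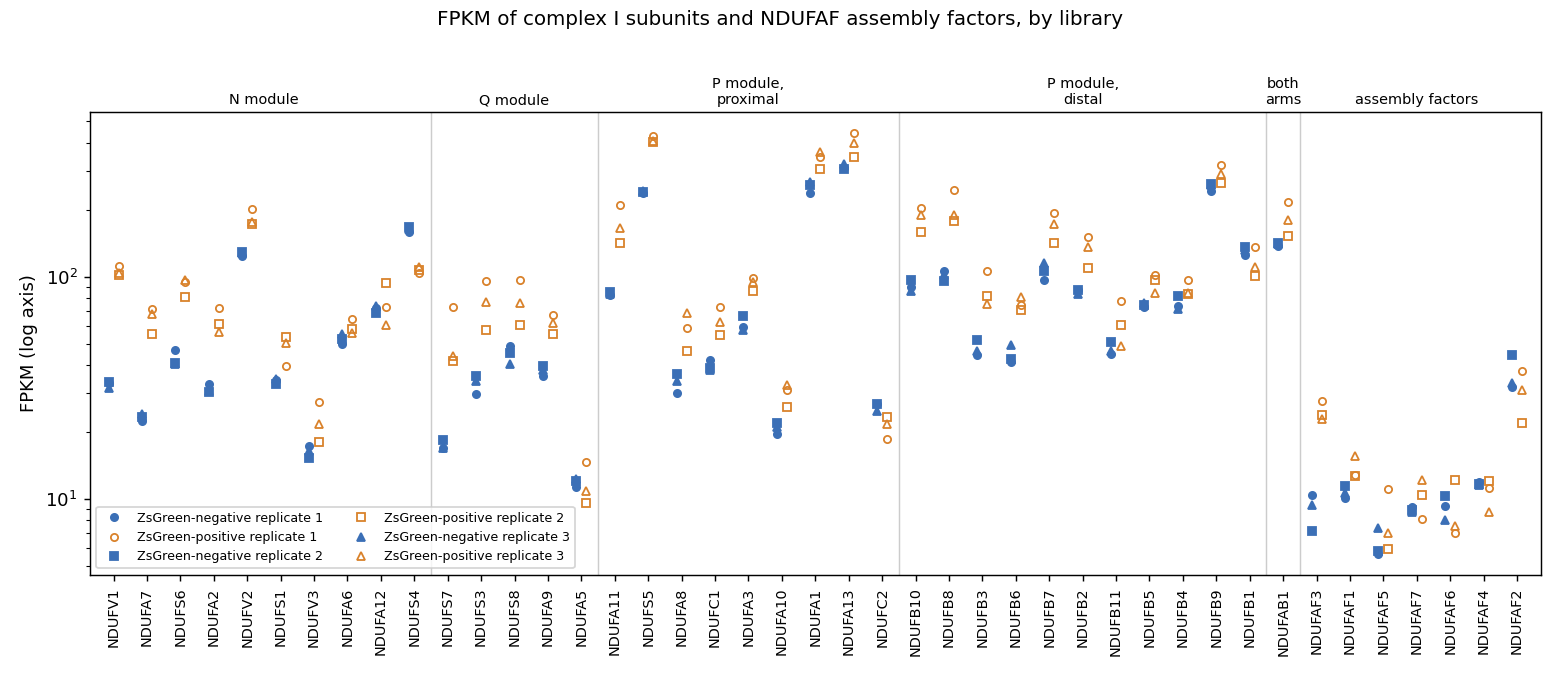
FPKM on a log axis of 36 subunits, grouped by module, and of each NDUFAF assembly factor, with 1 point per library (filled blue for ZsGreen-negative, open orange for ZsGreen-positive, 1 shape per replicate). The open points stand above the filled ones in 30 of the 36 subunits and below them in NDUFS4 and NDUFC2. Of the 12213 tested genes, the positive values lay above the negative ones in 33.2% and below them in 4211 genes.

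The summed FPKM of the 37 subunits was 2963, 3075 and 3060 in the negative and 4902, 4026 and 4383 in the positive libraries (3033 ± 60.4 against 4437 ± 441; SD, n = 3 each). The groups did not overlap, and the ratio of the means was 1.46. As a share of the FPKM outside small RNA genes, the subunits took 5.11 to 5.19 per 1000 in the negative and 8.07 to 8.71 per 1000 in the positive libraries. In bulk RNA, a change in the number of cells with a transcript and a change in its level per cell cannot be told apart.

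The positive libraries were less alike than the negative ones in these genes. The median coefficient of variation over the 37 subunits was 5.02% among the negative and 12.6% among the positive libraries. Positive replicate 1 had the highest of the 3 positive values in 28 subunits, replicate 2 in 3 and replicate 3 in 6. Taken against the negative mean, the median log2 fold change of the subunits was 0.74 in positive replicate 1, 0.44 in replicate 2 and 0.64 in replicate 3.

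The N module held both the largest rise and the largest fall among the subunits. Of its 10 members 7 rose, 1 fell and 2 did not pass, beside 29.4% of all tested genes higher and 30.0% lower. The median log2 fold change of the module was 0.50. NDUFV1, which binds NADH and the flavin, was at 33.3, 33.7 and 31.5 FPKM in the negative and 111, 102 and 104 FPKM in the positive libraries. It rose by 1.66 ± 0.062 on the log2 scale (adjusted p = 1.78e-06), and its positive values were the closest to each other of the core subunits. NDUFV2, the iron-sulfur partner of NDUFV1 and the second most abundant N module transcript in the negative libraries, was at 123.7, 128.8 and 128.2 FPKM against 202, 172.9 and 177.1 FPKM. Its rise of 0.53 ± 0.071 (adjusted p = 0.000549) was smaller than that of NDUFV1. NDUFS1, the largest iron-sulfur subunit, was at 34.3, 33.0 and 34.4 FPKM against 39.7, 53.6 and 50.1 FPKM, a rise of 0.47 ± 0.11 (adjusted p = 0.00799). Positive replicate 1 was the lowest of the positive libraries for NDUFS1, unlike in most subunits.

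NDUFS4, an accessory subunit that joins the N module to the rest of the matrix arm and is known as a gene of Leigh syndrome, ran against its module. It was at 159, 167 and 164 FPKM in the negative and 104, 107 and 111 FPKM in the positive libraries. The groups were far apart relative to their spread, and NDUFS4 fell by 0.60 ± 0.053 on the log2 scale (adjusted p = 6.72e-05). The other accessory N subunits that rose were NDUFA7 (1.43 ± 0.10), NDUFS6, which binds zinc (1.07 ± 0.092), NDUFA2 (0.99 ± 0.097) and NDUFV3 (0.41 ± 0.14). NDUFA12, at 71.5 ± 2.82 against 76.0 ± 16.9 FPKM, and NDUFA6, at 52.4 ± 2.52 against 59.5 ± 4.46 FPKM (SD, n = 3 each), did not pass (limma adjusted p = 0.717 and 0.0717). The call of NDUFV3 was lost without any 1 of the negative libraries, without positive replicate 1 and without positive replicate 3 (adjusted p 0.0666 to 0.119), and NDUFA6 passed without positive replicate 3 (0.23, adjusted p = 0.0385).

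**Figure D2:**
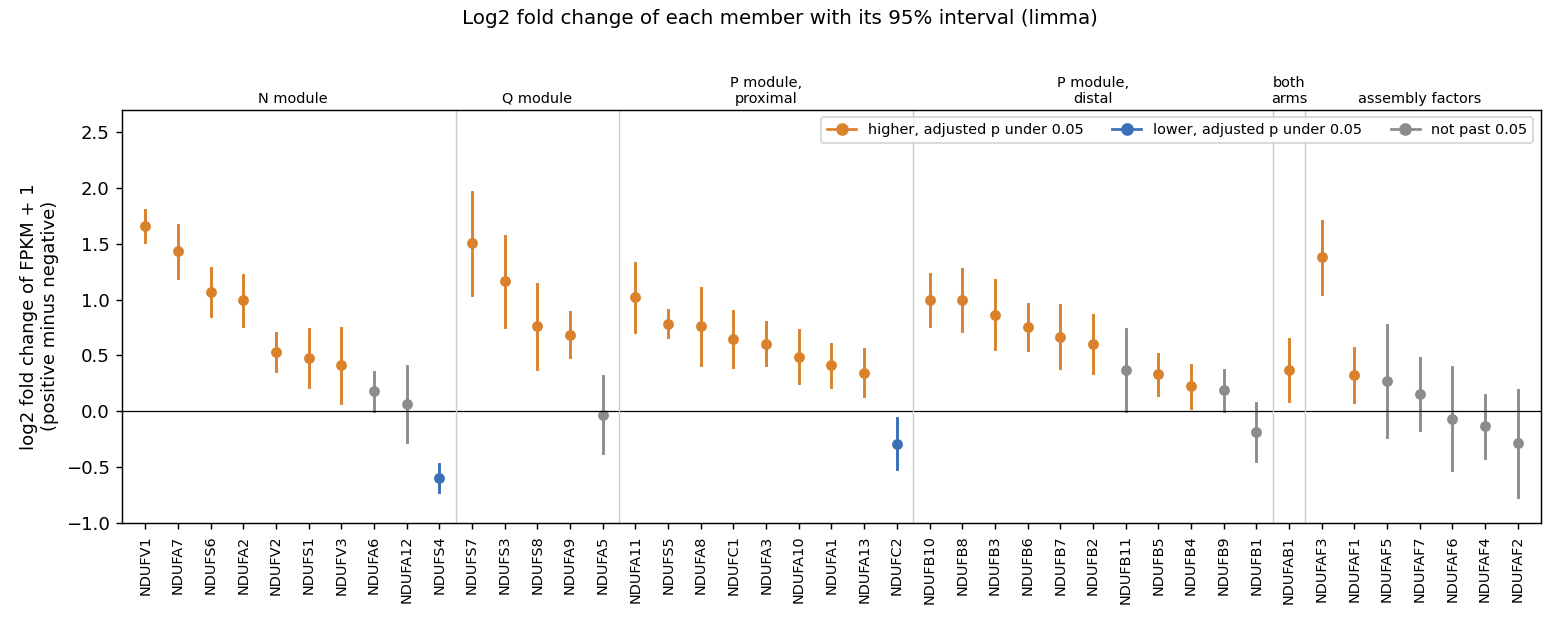
Log2 fold change of FPKM + 1 (positive minus negative) for 36 subunits and each NDUFAF factor, ordered within its module, with the 95% interval from limma as a line. Orange points are higher and blue points lower at an adjusted p under 0.05, and grey points did not pass. NDUFS4 (-0.60) and NDUFC2 (-0.29) are the blue points, and 5 of the 7 assembly factors are grey.

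The Q module had the highest median log2 fold change of the modules, 0.96, over only 6 members. Of these 5 were higher, 0 lower and 1 did not pass, beside 29.4% of all tested genes higher and 30.0% lower. The difference between the modules was not tested. NDUFS7, which holds the last iron-sulfur cluster before ubiquinone, was at 16.96, 18.5 and 16.9 FPKM against 72.7, 41.9 and 44.0 FPKM. The groups did not overlap, and the rise was 1.504 ± 0.196 (adjusted p = 0.000476), with positive replicate 1 well above the other positive libraries. NDUFS3, a core subunit that enters the earliest Q intermediate, was at 29.5, 35.6 and 34.0 FPKM against 95.5, 57.7 and 76.9 FPKM, a rise of 1.17 ± 0.17 (adjusted p = 0.000907). All positive values of NDUFS3 lay above all negative ones but were widely spread.

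NDUFS8, a ferredoxin-like subunit and the most abundant Q module transcript, was at 48.5, 45.1 and 40.4 FPKM against 96.7, 60.3 and 75.9 FPKM. It rose by 0.76 ± 0.16 (adjusted p = 0.00529), again with the highest value in positive replicate 1. After removal of the trend with transcript length and GC content NDUFS8 no longer passed (0.28, adjusted p = 0.0977). NDUFA9, an accessory subunit, rose by 0.69 ± 0.085. NDUFA5, an accessory subunit and the lowest of all 37 in the negative libraries, was at 11.2, 11.98 and 12.3 FPKM against 14.7, 9.61 and 10.9 FPKM. Its positive values lay on both sides of the negative ones, and it did not pass (-0.033 ± 0.15, adjusted p = 0.857).

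The 7 nuclear core subunits of the N and Q modules all rose, with a median log2 fold change of 1.17. The 5 of them that carry iron-sulfur clusters had a median of 0.76. Among the 30 accessory subunits 22 rose, 2 fell and 6 did not pass, with a median of 0.54. Both counts stand beside 29.4% of all tested genes higher and 30.0% lower. The difference between core and accessory subunits was not tested.

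The promoters of the subunits at the ends of this range, NDUFV1 and NDUFS4, and of NDUFS7, the leading Q module gene, are shown. They set 2 subunits with large rises beside the one that fell most. Each run is the 250 bases before the RefSeq start in GRCh38.p14, 5′ to 3′ in the direction of the gene, with motif matches in capitals.
NDUFV1 (chr11:67606686-67606935, plus strand): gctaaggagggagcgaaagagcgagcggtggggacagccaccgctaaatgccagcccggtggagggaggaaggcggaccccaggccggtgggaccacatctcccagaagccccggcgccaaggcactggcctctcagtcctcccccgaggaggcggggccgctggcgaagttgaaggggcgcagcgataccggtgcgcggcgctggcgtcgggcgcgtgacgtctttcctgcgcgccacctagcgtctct
NDUFS7 (chr19:1383657-1383906, plus strand): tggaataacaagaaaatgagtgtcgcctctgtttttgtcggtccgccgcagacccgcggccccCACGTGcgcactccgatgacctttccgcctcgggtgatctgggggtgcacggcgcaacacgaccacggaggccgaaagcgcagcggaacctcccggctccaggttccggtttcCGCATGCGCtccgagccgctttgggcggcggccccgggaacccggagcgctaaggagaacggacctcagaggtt
NDUFS4 (chr5:53560389-53560638, plus strand): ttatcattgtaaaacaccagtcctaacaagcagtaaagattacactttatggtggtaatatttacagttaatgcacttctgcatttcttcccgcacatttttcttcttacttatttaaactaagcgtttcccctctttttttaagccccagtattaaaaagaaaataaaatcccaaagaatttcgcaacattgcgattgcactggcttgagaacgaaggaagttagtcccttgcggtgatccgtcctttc

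The NDUFS7 window held an E-box (CACGTG) that starts 187 bases before the start and an NRF1 motif (GCGCATGCG, here on the minus strand) at 74 bases before it. The windows of NDUFV1 and NDUFS4 held none of the 6 motifs searched, and their GC content was 70.4% and 36.8%. Promoter entries matched 38 members by symbol, 32 of them subunits and 6 NDUFAF factors. For 37 of the 38 a short stretch downstream of the start occurred somewhere in a GENCODE transcript of that gene. This checks the direction of the sequence and not the exact start. Searched on both strands, the NRF1 motif was in 3 of 32 subunit promoters (9.38%, beside 1.78% of 27305 promoters), in NDUFS7, NDUFS6 and NDUFB4. The ETS motif CCGGAAG, bound by the GABP factor among others, was in 5 (15.6%, beside 8.82%), the E-box in 3 (9.38%, beside 6.49%) and the hypoxia core ACGTG, which overlaps the E-box, in 8 (25%, beside 18.7%). CCAAT was in 8 (25%, beside 33%) and the YY1 motif AAGATGG in 1 (3.12%, beside 3.77%). These are matches of letters, counted as a description. The 3 subunits with the NRF1 motif had log2 fold changes of 1.504 (NDUFS7), 1.07 (NDUFS6) and 0.22 (NDUFB4). NDUFV1, which has none of the 6 motifs, had 1.66. Whether a match goes with the size of a change was not tested.

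In the proximal P module, 8 of 9 subunits rose and 1 fell, beside 29.4% of all tested genes higher and 30.0% lower. The median log2 fold change of this part was 0.61. NDUFA11, an accessory subunit of the membrane arm, was at 82.8, 84.9 and 83.2 FPKM against 211, 142 and 166 FPKM. It had the largest rise of the P module (1.02 ± 0.13, adjusted p = 0.000473), again highest in positive replicate 1. NDUFA13, also known as GRIM-19 and the most abundant subunit transcript of the negative libraries, was at 307, 304 and 322 FPKM against 443, 348 and 401 FPKM. It rose by 0.35 ± 0.091 (adjusted p = 0.0132). Under quantile normalisation its log2 fold change was -0.068, and after removal of the length and GC trend -0.074. Without negative replicate 2 it stood at the threshold (0.33, adjusted p = 0.05). NDUFS5 (0.78 ± 0.052), NDUFA8 (0.76 ± 0.15), NDUFC1 (0.65 ± 0.11), NDUFA3 (0.61 ± 0.081), NDUFA10 (0.49 ± 0.10) and NDUFA1 (0.41 ± 0.081) also rose. NDUFA3 was at -0.11 after removal of the length and GC trend, and NDUFA1 did not pass under quantile normalisation (0.042, adjusted p = 0.664).

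NDUFC2, an accessory subunit of the membrane arm, was the other subunit that fell. It was at 26.6, 26.8 and 24.8 FPKM in the negative and 18.5, 23.4 and 21.8 FPKM in the positive libraries. The groups did not overlap but stood close, and it fell by 0.29 ± 0.097 on the log2 scale (adjusted p = 0.0341). The call was lost under 8 of 17 alternative settings, among them the omission of any 1 of the negative libraries (adjusted p 0.0647 to 0.112). The readthrough transcript NDUFC2-KCTD14 shares sequence with NDUFC2, so that the split of fragments between them is uncertain. It was at 2.76, 2.60 and 2.08 FPKM against 14.9, 2.88 and 7.42 FPKM (log2 fold change 1.21 ± 0.45, limma adjusted p = 0.0513). The sum of both was 28.6 ± 1.42 FPKM in the negative and 29.6 ± 3.56 FPKM in the positive libraries (SD, n = 3 each), so the groups overlapped once both rows were added.

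In the distal P module, 8 of 11 subunits rose, 0 fell and 3 did not pass, beside 29.4% of all tested genes higher and 30.0% lower. The median log2 fold change of this part was 0.60. NDUFB10, which has cysteine motifs of the intermembrane space, was at 89.5, 96.7 and 86.6 FPKM against 203, 158 and 189 FPKM, a rise of 1.00 ± 0.098 (adjusted p = 0.000117). NDUFB8, an accessory subunit widely used as a marker of assembled complex I, rose as far (1.00 ± 0.12). NDUFB9, a subunit of the LYR family and the most abundant of the distal module, was at 243.5, 262.7 and 257.6 FPKM against 317.7, 264.7 and 288.5 FPKM. The groups of NDUFB9 did not overlap, but its log2 fold change of 0.19 ± 0.077 did not pass (adjusted p = 0.0727), although it did without positive replicate 2 (0.25, adjusted p = 0.0163). With each library rescaled to the same sum limma called NDUFB9 higher (0.36, adjusted p = 0.000927). Under quantile normalisation NDUFB9 was called lower (-0.18, limma adjusted p = 0.0229). NDUFB1, a small accessory subunit, was at 125.4, 136.4 and 131.7 FPKM against 136.5, 100.4 and 110.7 FPKM. NDUFB1 had the lowest log2 fold change of the distal module (-0.19 ± 0.11, adjusted p = 0.18), and its groups overlapped. Without positive replicate 1, its highest positive library, NDUFB1 was called lower (-0.31, adjusted p = 0.00784). NDUFB11 did not pass either (0.37 ± 0.16, limma adjusted p = 0.0784) but did without positive replicate 3 (0.53, adjusted p = 0.00963), and NDUFB3, NDUFB6, NDUFB7, NDUFB2, NDUFB5 and NDUFB4 rose by 0.22 to 0.87. The smallest of these rises, that of NDUFB4, was lost without negative replicate 1 or 3 and without positive replicate 1 or 3 (adjusted p 0.0555 to 0.166). NDUFAB1, the mitochondrial acyl carrier protein that sits in both arms, rose by 0.37 ± 0.12, from 140.4 ± 2.18 to 183.3 ± 32.6 FPKM (SD, n = 3 each). Its call was lost without any 1 of the negative libraries and without positive replicate 3 (adjusted p 0.0694 to 0.0878).

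Subunit transcripts differed widely in level, although the proteins enter the enzyme in fixed numbers. FPKM is a level per length, and the mean over the negative libraries ran from 11.9 FPKM for NDUFA5 to 311 FPKM for NDUFA13, a 26.3-fold range. The order of the levels was similar in both groups (Spearman rho of the group means 0.89 over 37 subunits from the same libraries, a description). Set against the median subunit of the same library, NDUFS4 stood at 3.27 times that level in the negative and 1.25 times in the positive libraries, and NDUFB1 at 2.63 and 1.33 times. NDUFV1 went the other way, from 0.658 to 1.23 times the median subunit, as did NDUFA7 from 0.466 to 0.748 times and NDUFS7 from 0.349 to 0.602 times. These ratios show unequal change among the subunits and not which of them stayed the same.

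**Figure D3:**
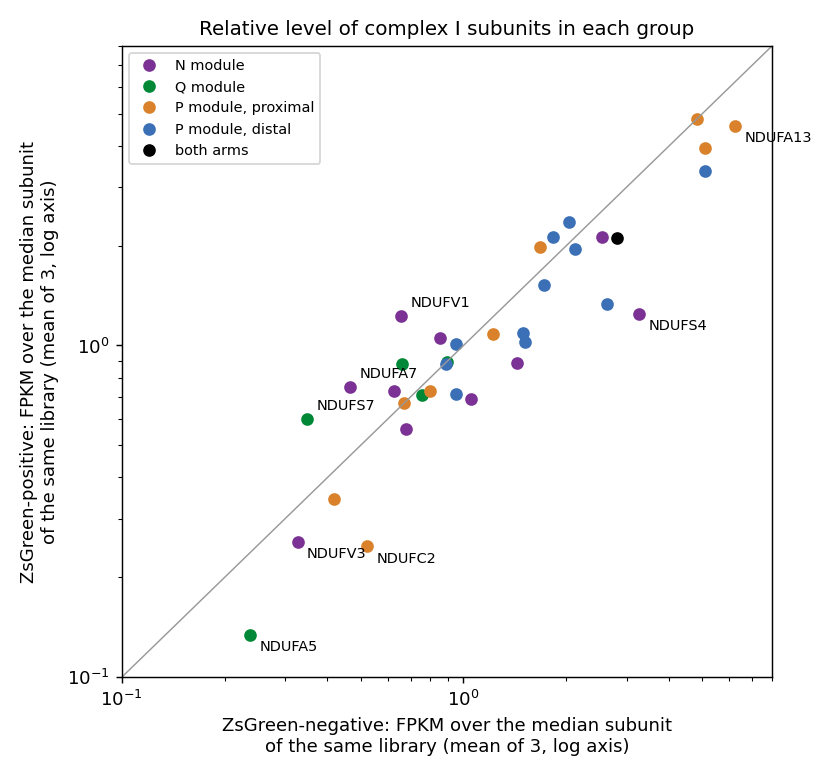
FPKM of each of 36 subunits divided by the median subunit of the same library, as means of 3 libraries, with ZsGreen-negative on the x axis and ZsGreen-positive on the y axis (both log axes, coloured by module, the grey line marking equal values). NDUFS4 lies far below the line (3.27 against 1.25), and NDUFV1 (0.658 against 1.23) and NDUFS7 (0.349 against 0.602) lie above it.

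The log2 fold change of the subunits moved with the base composition of their transcripts. Over the 37 subunits its Spearman rho with the GC content of annotated transcripts was 0.56, beside 0.29 over 11585 tested genes with a value, and with transcript length 0.040. With the mean FPKM of the negative libraries rho was -0.33. These are descriptions across genes of the same libraries, and the part of base composition in the differences was measured only by removing its trend together with that of length. After this the median of the subunits was 0.58, with 25 higher and 1 lower, and NDUFB7 (0.094, adjusted p = 0.462), NDUFC2 (-0.27, adjusted p = 0.0536), NDUFS8, NDUFA13 and NDUFA3 were no longer called by limma.

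**Figure D4:**
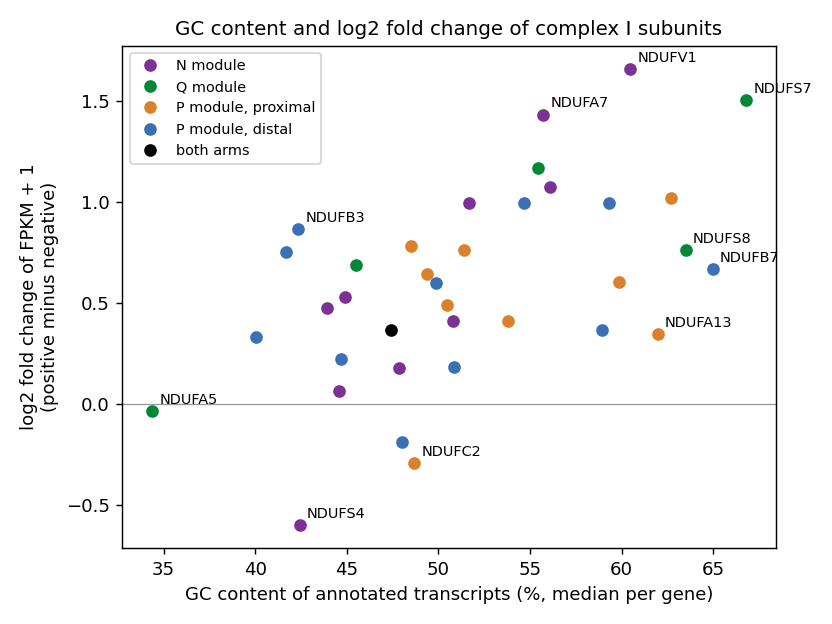
Log2 fold change of 36 subunits (y axis) against the median GC content of each gene's annotated transcripts in percent (x axis), coloured by module. NDUFS7 and NDUFV1 lie at the upper right and NDUFA5 and NDUFS4 at the lower left, and the Spearman rho over all 37 subunits is 0.56.

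Of the NDUFAF factors, NDUFAF3 and NDUFAF1 rose. NDUFAF3, which acts with NDUFAF4 on the early Q module intermediate, was at 10.4, 7.18 and 9.35 FPKM in the negative and 27.7, 23.9 and 22.8 FPKM in the positive libraries. The groups were well apart, with a log2 fold change of 1.38 ± 0.14 (adjusted p = 0.000132). NDUFAF1, a part of the MCIA complex that builds the membrane arm, was at 10.03, 11.4 and 10.6 FPKM against 12.9, 12.7 and 15.5 FPKM. Its rise of 0.33 ± 0.10 (adjusted p = 0.0288) was small, and its groups did not overlap. The call of NDUFAF1 was lost when any 1 of the 3 negative libraries was left out (log2 fold change 0.29 to 0.37, adjusted p 0.0525 to 0.111).

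The other 5 factors did not pass, and the groups of each overlapped. NDUFAF4, the partner of NDUFAF3, was at 11.9, 11.7 and 11.6 FPKM against 11.2, 12.03 and 8.75 FPKM (-0.13 ± 0.12, adjusted p = 0.363). NDUFAF2, a chaperone of the last steps of assembly, was at 31.9, 44.6 and 33.2 FPKM against 37.6, 22.0 and 30.8 FPKM (-0.29 ± 0.20, adjusted p = 0.258). Among the 7 rows with NDUFAF symbols it was the most abundant and, in the negative libraries, the most variable. NDUFAF5, which hydroxylates an arginine of NDUFS7, was at 5.66, 5.85 and 7.396 FPKM against 11.1, 5.92 and 7.04 FPKM (0.27 ± 0.21, adjusted p = 0.305). Its log2 fold change was 0.039 without positive replicate 1 and 0.73 with that library as the only positive one (adjusted p = 0.0132). NDUFAF6, needed for early assembly, was at 9.25, 10.3 and 8.01 FPKM against 7.03, 12.1 and 7.56 FPKM (-0.068 ± 0.20, adjusted p = 0.78). NDUFAF7, a protein arginine methyltransferase, was at 9.16, 8.92 and 8.73 FPKM against 8.10, 10.4 and 12.1 FPKM (0.16 ± 0.14, adjusted p = 0.361), and it passed without positive replicate 1 (0.30, adjusted p = 0.0327). The 95% intervals of these 5 log2 fold changes reached from -0.77 at the lowest bound (NDUFAF2) to 0.77 at the highest (NDUFAF5), and a rise of the size of the subunit median lay inside the interval of NDUFAF5, a fall of that size inside that of NDUFAF2.

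Most assembly factors with other names rose. Of 13 on the list 10 rose, 0 fell and 3 did not pass (ECSIT, TIMMDC1 and TMEM261), with a median log2 fold change of 0.74. The share of 76.9% higher stands beside 29.4% of all tested genes higher and 30.0% lower. FOXRED1, an oxidoreductase-like factor of late assembly, rose from 2.44 ± 0.308 to 15.5 ± 2.28 FPKM (SD, n = 3 each; log2 fold change 2.25 ± 0.14, limma adjusted p = 1.14e-05). ACAD9, an acyl-CoA dehydrogenase that works in the MCIA complex with NDUFAF1, rose by 1.19 ± 0.089, and NUBPL, which delivers iron-sulfur clusters to the complex, by 1.08 ± 0.13. C17orf89, the older symbol of NDUFAF8, rose from 40.1 ± 2.15 to 67.7 ± 6.57 FPKM (SD, n = 3 each; 0.74 ± 0.084). The difference between the sets of factors was not tested.

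**Figure D5:**
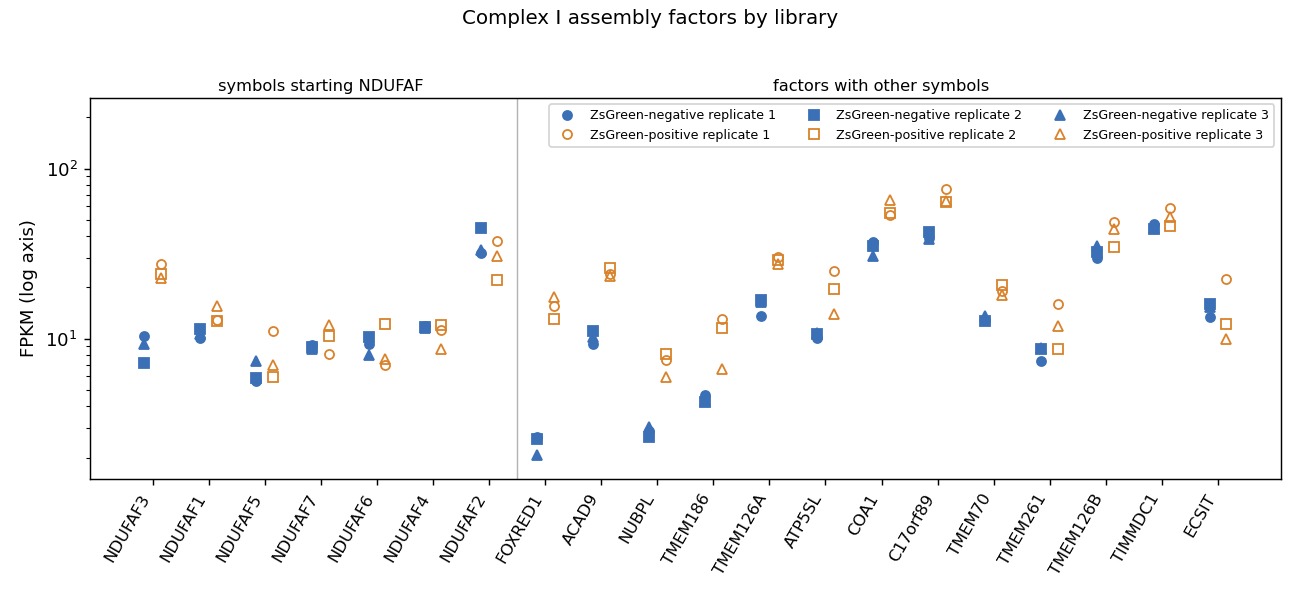
FPKM on a log axis of the 7 NDUFAF factors (left) and 13 assembly factors with other symbols (right), 1 point per library (filled blue for ZsGreen-negative, open orange for ZsGreen-positive). NDUFAF3 and FOXRED1 have the widest gaps between groups, while the points of NDUFAF4, NDUFAF6 and NDUFAF2 overlap.

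NDUFA4 and NDUFA4L2 carry NDUF symbols for historical reasons. NDUFA4, a subunit of cytochrome c oxidase, was at 44.7, 48.6 and 47.1 FPKM against 62.8, 59.4 and 59.0 FPKM and rose by 0.36 ± 0.062 (adjusted p = 0.00177). Its groups did not overlap. NDUFA4L2, a paralogue known as a target of hypoxia-inducible factor, was at 1.30, 1.66 and 1.53 FPKM in the negative libraries and at 0.225, 0 and 0 FPKM in the positive ones. It lay below the minimum mean and was not tested. The pseudogene NDUFAF4P1, which resembles NDUFAF4 so that fragments may be shared, stayed under 1 FPKM in every library (0.149 ± 0.022 against 0.435 ± 0.426; SD, n = 3 each) and was not tested either.

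Genes around complex I were read from lists chosen by function. Among 15 genes of mitochondrial iron-sulfur cluster assembly, 5 rose, 3 fell and 7 did not pass, with a median log2 fold change of 0.38. The shares of 33.3% higher and 20% lower stood near those of all tested genes (29.4% and 30.0%). FDXR, the reductase that supplies electrons for cluster synthesis, rose by 1.89 ± 0.091 (adjusted p = 4.38e-06), the cysteine desulfurase NFS1 by 1.03 ± 0.18 and the late-acting ISCA2 by 1.03 ± 0.094, while the scaffold ISCU, the chaperone HSPA9 and ISCA1 fell. Of 10 tested regulators of mitochondrial biogenesis, 2 rose, 1 fell and 7 did not pass, with a median of 0.027. The shares of 20% higher and 10% lower were below those of all tested genes. YY1 rose by 0.49 ± 0.088 and the mitochondrial rRNA methyltransferase TFB1M by 0.46 ± 0.13, and GABPA, the DNA-binding subunit of GABP, fell from 19.4 ± 0.566 to 11.6 ± 0.471 FPKM (SD, n = 3 each; -0.69 ± 0.073 on the log2 scale, limma adjusted p = 0.000171). The factor gene NRF1 was at 4.10 ± 0.344 against 4.21 ± 0.773 FPKM (SD, n = 3 each) and did not pass.

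Nuclear subunits of the other respiratory complexes gave counts of the same order as complex I. Of those listed, 3 of 4 rose in complex II (median log2 fold change 0.42, led by SDHA with 1.33), 7 of 9 in complex III (0.79, CYC1 with 1.30), 8 of 10 in complex IV (0.52, COX8A with 1.20) and 12 of 16 in complex V (0.51, ATP5G1 with 1.70), and 0 fell in each. Over all tested genes 29.4% were higher and 30.0% lower. Complex I was not tested against these complexes.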

How the data were processed

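Messenger RNA libraries were made from total RNA with a stranded poly(A) kit, per the labels' protocols. The authors deposited 1 table of FPKM values per library. The submitters' processing notes name TopHat2 2.1.1, Bowtie2 2.2.8, SAMtools 0.1.18, Cuffdiff 2.2.1 and the build hg19, while settings, annotation, strand handling and the scaling between libraries were not given in the sources used here. Because FPKM is relative to a total, very abundant RNAs can move the values of all other genes. Depth was estimated from the steps of low FPKM values among 3584 genes with transcripts of at least 1000 nt.

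Log2(FPKM + 1) was fitted in R 4.3.3 by limma 3.58.1 (linear model, moderated with a mean-variance trend, 4 residual and 3.22 prior degrees of freedom, two-sided) over 12213 genes with a mean of at least 1 FPKM, Benjamini-Hochberg adjusted, threshold 0.05. The code was tested on simulated data. Adding 1 shrinks the log2 fold change of low genes. An exact permutation test of 3 against 3 libraries cannot go below p = 0.1 and was not used. Counts and medians of sets were set beside those of all tested genes, with no set test. Named genes were all NDUFAF factors, NDUFA4, NDUFA4L2, the core subunits, per module the highest and lowest log2 fold change and the highest level, called subunits that ran against their module, and up to 3 called genes of each related list with the largest change. The others were named as examples after their values were seen. The values of 1 subunit are not reported here, although it is counted in the sets. Members and lists were chosen with earlier results of these data known. Transcript lengths and GC content came from GENCODE (GRCh38) by symbol, for all 47 members and 94.9% of tested genes, and promoters from RefSeq (GRCh38.p14). Alternatives were other pseudocounts, filters and scalings, no trend, a replicate block, removal of the length and GC trend (loess, span 0.3), and leaving out libraries.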

Additional observations from a re-analysis of the deposited data

How the results depend on the processing

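Of 31 called subunits, 22 kept direction and call under all 17 alternatives, among them NDUFV1 and NDUFS4, and 9 lost the call or the direction in some (NDUFA1, NDUFA3, NDUFA13, NDUFAB1, NDUFB4, NDUFB7, NDUFC2, NDUFS8 and NDUFV3). Over all tested genes, the deposited values gave a median log2 fold change of 0.0040, rescaling each library to the same sum, with or without small RNA genes, gave 0.14, and quantile normalisation gave -0.061. The share of called genes that were higher was 49.5%, 62.1%, 60.6% and 44.7% in this order. The median of the subunits was 0.78, 0.76 and 0.45 under these 3 rescalings, and that of the N module 0.67, 0.66 and 0.41. The P module had 0.77 with the sum, and the assembly factors 0.30 with the sum and 0.30 without small RNA genes. With the length and GC trend removed the N module had 0.60. With positive replicate 1 as the only positive library, whose spread is then assumed to be that of the negative libraries, it had 0.69 and the assembly factors 0.053. Subunits called lower numbered 1 with no filter, with no trend, with either rescaling to a sum and with the length and GC trend removed, and 4 under quantile normalisation.

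Leaving out 1 library gave 26 to 30 subunits higher, 1 to 3 lower (3 without positive replicate 1, 1 without any 1 of the negative replicates), 1 to 3 assembly factors higher and 0 lower. The medians were then 0.56 to 0.73 for the subunits, 0.035 to 0.17 for the assembly factors (0.035 without positive replicate 3, 0.065 without positive replicate 1), 0.50 to 0.56 for the N, 0.81 to 1.07 for the Q and 0.52 to 0.69 for the P module. The direction of some genes reversed. Rescaling to the sum, or without small RNA genes, gave 0.12 and 0.11 for NDUFA5, 0.029 and 0.012 for NDUFAF4 and 0.091 and 0.076 for NDUFAF6. Quantile normalisation gave -0.054 for NDUFA12, -0.068 for NDUFA13 and -0.18 for NDUFB9, of which only NDUFB9 was called lower (limma adjusted p = 0.0229). Removing the length and GC trend gave -0.074 for NDUFA13, -0.11 for NDUFA3, 0.18 for NDUFA5 and 0.11 for NDUFAF4. Positive replicate 1 alone gave 0.29 for NDUFA5, 0.053 for NDUFAF2, -0.13 for NDUFAF7 and 0.058 for NDUFB1. Without single libraries NDUFA12 ranged from -0.099 to 0.21, NDUFA5 from -0.20 to 0.088 and NDUFAF6 from -0.29 to 0.065. Where no value above shows it, the cause was not tested.

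Samples with the same replicate number did not deviate together (correlations of deviations -0.021, -0.030 and -0.021), and no library correlated best with its own number. With so few libraries these values cannot show whether samples of the same number were handled as pairs. With a replicate block 28 subunits were higher and 2 lower, NDUFB4 lost its call (adjusted p = 0.0718), and 2 assembly factors were higher. Of all genes, 3433 were then higher and 3482 lower, against 3590 and 3668. The low and uneven values of positive replicates 2 and 3 limit what can be said of members under a few FPKM, such as NDUFA4L2.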

Other observations

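Besides the readthrough, 3 antisense rows carry the name of a subunit with a hyphen and were not members. Strand handling in the counting is not known, so fragments of a gene and its antisense partner may not be separated. For NDUFV2-AS1 the negative libraries had 1.14, 1.33 and 0.859 FPKM and the positive libraries 0.453, 0 and 0 FPKM, while NDUFV2 itself rose. NDUFA6-AS1 was at 2.15 ± 0.505 against 2.25 ± 0.371 FPKM (SD, n = 3 each; log2 fold change 0.050, limma adjusted p = 0.818). NDUFB2-AS1 was at 0.064, 0.201 and 0.066 FPKM against 0.259, 0.997 and 0 FPKM. The rows NDUFV2-AS1 and NDUFB2-AS1 lay below the minimum mean and were not tested.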
